A study of Homo sapiens with 8 samples.

Results

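The hexosamine pathway was described here through 8 genes, UAP1, PGM3, GFPT1, GFPT2, GNPNAT1, OGT, MGEA5 and B4GALT1, which make UDP-GlcNAc, place or remove O-GlcNAc, or extend glycans that end in GlcNAc. They were picked by gene symbol and are 8 of the 57773 genes in the deposited table. All 8 were found in it under these names, and 7 of them were high enough to be tested.

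Cells branch a small share of the sugar that enters glycolysis into the hexosamine pathway, which joins carbon from glucose, nitrogen from glutamine, an acetyl group and a uridine nucleotide into the activated sugar UDP-GlcNAc. The cell spends UDP-GlcNAc on branched N-glycans, mucin-type glycans, glycosaminoglycans and membrane anchors, and on O-GlcNAc, a single sugar placed on and taken off nuclear and cytoplasmic proteins. UAP1 catalyses the last step, and in prostate cancer cells it is known as an androgen-responsive gene.

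RNA was sequenced from ZR-75-1, an established human breast cancer line that carries the estrogen receptor. Per the labels' protocols, all cells spent 72 h in medium without phenol red and with charcoal-stripped serum, which removes steroids. They then received, for 4 h, either 10 nM estradiol together with 10 nM dihydrotestosterone, a potent androgen (E2+DHT), or 10 nM estradiol alone (E2). There were 4 libraries of each treatment, all from 1 cell line, and no library without hormone, so that only the addition of DHT to E2 could be compared.

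Titles and library names contradict each other about the treatment in 4 of 8 records. Each treatment by title holds as many libraries named E2 as libraries named E2+DHT. Groups and replicate numbers follow the library names here, since the columns of the table carry them, and the grouping by titles was kept as an alternative. Record by record, the E2+DHT libraries then have passages 9 and 11 and the E2 libraries passages 8 and 10, so that on this reading passage and treatment cannot be told apart except as a steady trend. By the titles' own numbers, each passage instead holds 1 library of each treatment, and the labels do not say which of the 2 readings is right. Nothing in them states that libraries of the same passage came from separate cultures, so part of the spread behind the p-values may be technical.

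The values were RPKM, reads per kilobase of exon scaled for sequencing depth. Levels can be compared between genes only roughly, since the counting tool and the annotation were not given. Whole reads recovered from the steps of the values gave library sizes of 19599217 to 34616639 reads for E2+DHT and 19955045 to 31913885 reads for E2. The share of reads in the table's exons was 83.2% to 84.8% in E2+DHT and 78.3% to 83.7% in E2. Since it tended to be higher with DHT, a fit with this share as a covariate can take up part of a difference between treatments. All 10 luminal breast markers were expressed, from a mean of 6.17 RPKM for ESR1 to 857 RPKM for KRT19. The 7 basal markers summed to 0.206 to 0.356 RPKM in E2+DHT libraries and 0.177 to 0.373 RPKM in E2 libraries. The 7 fibroblast markers summed to 0.884 to 1.31 RPKM in E2+DHT libraries and 0.909 to 1.10 RPKM in E2 libraries. The 7 immune markers summed to 0.443 to 0.820 RPKM in E2+DHT libraries and 0.502 to 0.561 RPKM in E2 libraries, with CD3D, a T cell receptor subunit, at 0 in every library.

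With DHT, none of the 7 tested genes of the pathway passed the threshold. UAP1 was the only one whose 4 E2+DHT libraries all lay above all 4 E2 libraries, by 1.18 times in the mean; in all, 3.4% of tested genes had groups without overlap. The enzymes before it, GFPT1, GNPNAT1 and PGM3, and the genes that place, remove or extend GlcNAc, OGT, MGEA5 and B4GALT1, had log2 fold changes between -0.13 and -0.016 with overlapping groups. In this test (limma on log2(RPKM + 0.5), two-sided, Benjamini-Hochberg over all tested genes, threshold 0.05), 21 of 11375 genes passed, or 0.185%. Of the 21, 20 were higher and 1 lower with DHT, against 18 higher and 4 lower when libraries were scaled to the same RPKM sum. Among the members 0 of 7 passed with limma, none higher (0.176% of all tested genes) and none lower (0.00879%), and 0 of 7 with limma voom on the recovered reads, and 1 of 7 had an unadjusted limma p under 0.05, against 4.47% of all tested genes. In bulk RNA, fewer cells making a transcript and less of it per cell cannot be told apart.

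**Figure D1:**
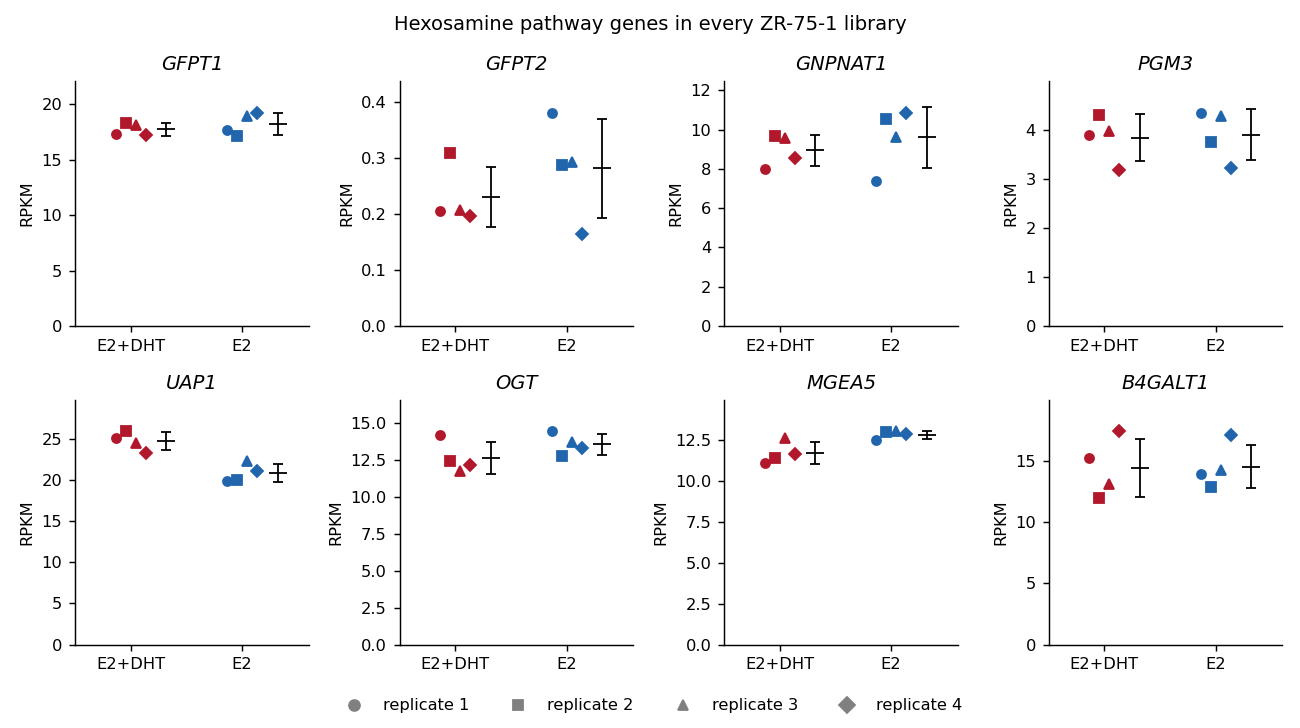
RPKM of the 8 genes in each library, E2+DHT left and E2 right in every panel, with a marker shape for each replicate number and the mean ± SD of the 4 libraries as a black bar. The UAP1 values do not overlap between treatments (23.3 to 25.9 against 19.9 to 22.3 RPKM), while those of the other 7 genes do.

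UAP1, UDP-N-acetylglucosamine pyrophosphorylase, joins GlcNAc phosphate to the uridine nucleotide and releases UDP-GlcNAc. Its gene lies on the plus strand of chromosome 1, from 162531323 to 162569627 in the hg19 coordinates of the table (ENSG00000117143). RefSeq gives 3 start windows for it on GRCh38.p14, each running from 250 bases before a start to 50 bases after it. The window of the upstream start (chr1:162561281-162561580, plus strand) is shown because UAP1 is the member whose groups did not overlap. Its capitals mark TGACGTG, the core letters of an unfolded protein response element.

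UAP1: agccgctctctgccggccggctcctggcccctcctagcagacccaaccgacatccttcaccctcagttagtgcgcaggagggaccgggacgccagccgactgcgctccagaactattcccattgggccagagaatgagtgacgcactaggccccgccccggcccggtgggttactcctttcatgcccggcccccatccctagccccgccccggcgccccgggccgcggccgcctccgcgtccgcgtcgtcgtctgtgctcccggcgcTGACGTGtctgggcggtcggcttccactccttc

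All 8 members matched RefSeq by gene or by synonym (MGEA5 is now called OGA), with 12 windows among them, which were searched on both strands. TGACGTG was found in 2 of the 3 UAP1 windows, which overlap each other, at the same place on the chromosome, at positions 268 to 274 of the window shown. It was found in no window of the other 7 members, and in 1.97% of all 35116 windows of the table. A full androgen response element, AGAACA and TGTTCT with any 3 bases between them, was in none of the 12 windows and in 0.00285% of all windows. Its shorter part AGAACA was in the MGEA5 window, on the minus strand of that window's letters, and in 14.8% of all windows. An estrogen response element, GGTCA and TGACC with any 3 bases between them, was in none of the 12 windows and in 0.057% of all windows. An endoplasmic reticulum stress element, CCAAT and CCACG with any 9 bases between them, was in none of the 12 and in 0.0769% of all windows. AGAACA is contained in the full androgen element, and none of the other motifs contains another. These matches describe letters in short windows and do not show binding.

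UAP1 had 25.2, 25.9, 24.5 and 23.3 RPKM in E2+DHT replicates 1 to 4, against 19.9, 20.03, 22.3 and 21.2 RPKM in E2 replicates 1 to 4. The lowest E2+DHT library lay above the highest E2 library, a separation that 1.98% of all tested genes showed in the same direction. The mean was 24.7 ± 1.10 RPKM in E2+DHT and 20.9 ± 1.11 RPKM in E2 (SD, n = 4 each). The log2 fold change was 0.24 with a standard error of 0.066 (limma, 95% interval 0.093 to 0.39, unadjusted p = 0.00444, adjusted p = 0.407). By its unadjusted p UAP1 stood at place 124 of 11375 genes, and 345 genes had a log2 fold change at least as large. An exact two-sided permutation test of UAP1 alone gave p = 0.0286, the smallest that 4 against 4 libraries allow, without adjustment for the other genes. The smallest absolute log2 fold change among the 21 genes that passed was 0.41, so that no gene with a difference the size of that of UAP1 passed. Between 1475 and 2965 reads per library lay behind these values. With the share of reads in exons as a covariate the log2 fold change was 0.19 (limma, adjusted p = 0.648), and with libraries scaled to the same RPKM sum 0.16 (limma, adjusted p = 0.796). With treatments from the record titles it was 0.012, and in the 4 records whose labels agree it was 0.25. Over its alternatives the adjusted limma p of UAP1 ran from 0.196 to 1.00.

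**Figure D2:**
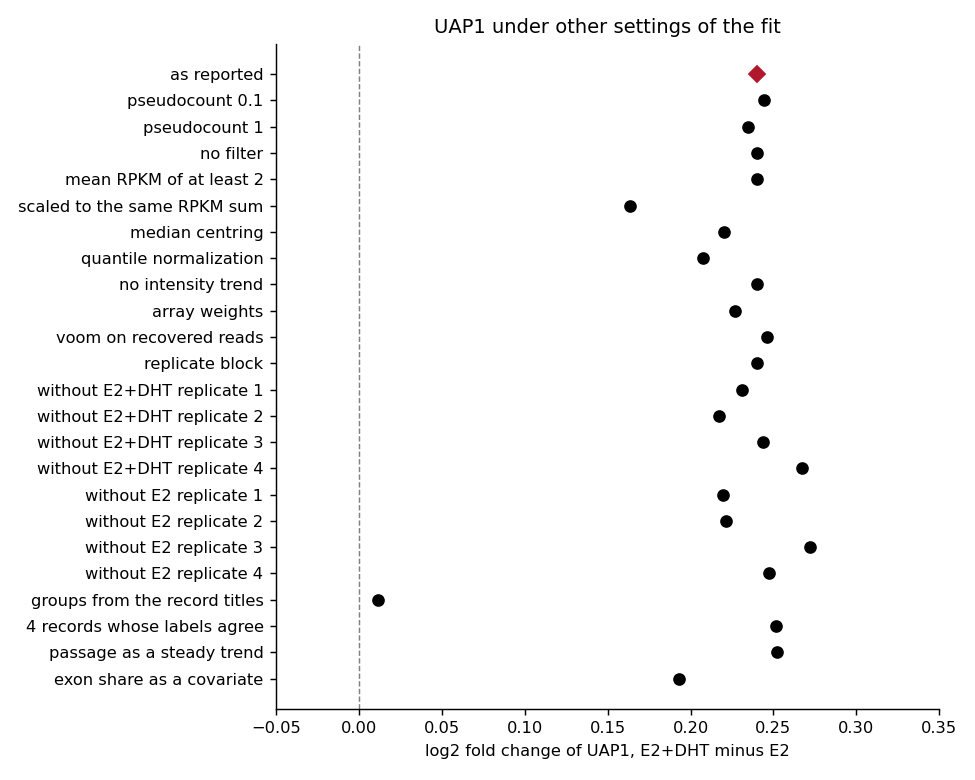
The log2 fold change of UAP1 (horizontal axis, E2+DHT minus E2) as reported and under 23 other settings, 1 per line. It lies between 0.16 and 0.27 in every setting but the grouping by record titles, where it is 0.012.

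GFPT1 and GFPT2 encode the amidotransferase that opens the pathway by moving nitrogen from glutamine onto fructose phosphate, the step usually taken as rate-limiting. GFPT1 (chromosome 2, minus strand, 69546905 to 69614382) had 17.3, 18.4, 18.1 and 17.2 RPKM in E2+DHT replicates 1 to 4, against 17.7, 17.2, 18.9 and 19.2 RPKM in E2 replicates 1 to 4. The groups overlapped, and all 8 values lay within 17.2 to 19.2 RPKM. It differed by -0.039 on the log2 scale (limma, standard error 0.064, 95% interval -0.18 to 0.10, adjusted p = 0.999), an interval that runs from 11.8% lower to 7.40% higher. GFPT1 was the most deeply read member, with 3187 to 5533 reads per library.

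GFPT2 (chromosome 5, minus strand, 179727690 to 179780387) was read at a low level. It had 0.205, 0.310, 0.206 and 0.197 RPKM in E2+DHT replicates 1 to 4, against 0.380, 0.287, 0.294 and 0.163 RPKM in E2 replicates 1 to 4, from 29 to 34 reads per library in E2+DHT and 16 to 58 in E2. The groups overlapped, and the highest and the lowest value were both in E2. Its mean lay under the minimum of 0.5 RPKM over the 8 libraries, so it was not tested, and a change could not be read at this depth. GFPT1 had 59.3 to 87.8 times the level of GFPT2 in E2+DHT libraries and 46.5 to 118 times in E2 libraries.

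GNPNAT1 adds the acetyl group. Its gene (chromosome 14, minus strand, 53241912 to 53258386) had 8.01, 9.66, 9.55 and 8.54 RPKM in E2+DHT replicates 1 to 4, against 7.39, 10.5, 9.61 and 10.8 RPKM in E2 replicates 1 to 4. The E2+DHT values lay inside the range of the E2 values, and replicate 1 was the lowest library of each treatment. On the log2 scale the difference was -0.087 (limma, standard error 0.12, 95% interval -0.34 to 0.17, adjusted p = 0.999). An antisense row, RP11-589M4.1, overlaps the gene and had 12 reads over all 8 libraries.

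PGM3 moves the phosphate on GlcNAc so that UAP1 can use it. Its gene (chromosome 6, minus strand, 83870869 to 83903655) had 3.90, 4.30, 3.97 and 3.19 RPKM in E2+DHT replicates 1 to 4, against 4.34, 3.75, 4.28 and 3.22 RPKM in E2 replicates 1 to 4. The groups overlapped, and replicate 4 was the lowest library of each treatment. Its log2 fold change was -0.018 (limma, standard error 0.11, 95% interval -0.26 to 0.22, adjusted p = 1.00). Among the synthesis enzymes other than GFPT2 it was the lowest, at a mean of 3.87 RPKM over the 8 libraries. It overlaps DOPEY1 and RWDD2A on the opposite strand, and since the counting is not stated to use strand, part of its reads may belong to them. DOPEY1 had a mean of 2.24 RPKM in E2+DHT and 2.35 in E2, and RWDD2A 2.05 in E2+DHT and 2.24 in E2.

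**Figure D3:**
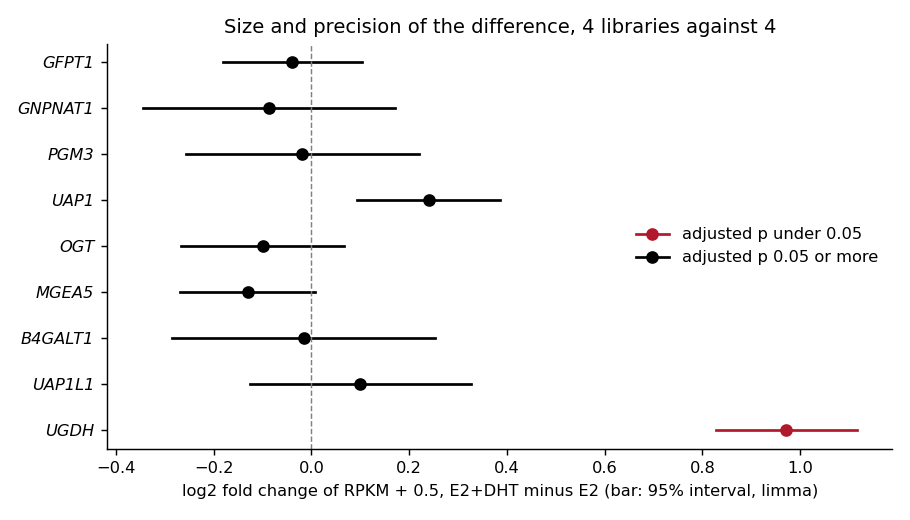
The log2 fold change (point) with its 95% limma interval (bar) for the 7 tested members, for UAP1L1 and for UGDH, E2+DHT minus E2. The UAP1 interval, 0.093 to 0.39, lies above 0, but only UGDH has an adjusted p under 0.05.

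OGT spends UDP-GlcNAc to place O-GlcNAc on proteins, and MGEA5 removes it. OGT (chromosome X, plus strand, 70752933 to 70795747) had 14.2, 12.5, 11.7 and 12.2 RPKM in E2+DHT replicates 1 to 4, against 14.4, 12.8, 13.8 and 13.3 RPKM in E2 replicates 1 to 4. In 3 of 4 E2+DHT libraries it was below every E2 library, while E2+DHT replicate 1 lay within the E2 range. The difference between the means was -0.100 on the log2 scale (limma, standard error 0.075, 95% interval -0.27 to 0.068, adjusted p = 0.999).

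MGEA5 (chromosome 10, minus strand, 103544200 to 103578696) had 11.1, 11.4, 12.6 and 11.6 RPKM in E2+DHT replicates 1 to 4, against 12.5, 12.9, 13.0 and 12.8 RPKM in E2 replicates 1 to 4. Again 3 of 4 E2+DHT libraries lay below every E2 library, the exception being replicate 3. The E2 libraries were close together, at 12.8 ± 0.241 RPKM, against 11.7 ± 0.665 RPKM in E2+DHT (SD, n = 4 each). The log2 fold change was -0.13 (limma, standard error 0.062, 95% interval -0.27 to 0.0085, unadjusted p = 0.0631, adjusted p = 0.999), the lowest among the members. An exact two-sided permutation test of MGEA5 alone gave p = 0.0571.

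The balance of the O-GlcNAc pair, OGT over MGEA5, was 1.28, 1.10, 0.931 and 1.05 in E2+DHT replicates 1 to 4, against 1.16, 0.985, 1.06 and 1.04 in E2 replicates 1 to 4. The ratios overlapped, and both the highest and the lowest were in E2+DHT. Both genes were read at similar levels, a mean of 13.1 RPKM for OGT and 12.2 RPKM for MGEA5 over the 8 libraries.

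B4GALT1 encodes the galactosyltransferase that adds galactose to GlcNAc at the ends of N-glycans in the Golgi, and in the lactating breast it takes part in lactose synthesis. Its gene (chromosome 9, minus strand, 33104080 to 33167354) had 15.2, 12.0, 13.1 and 17.4 RPKM in E2+DHT replicates 1 to 4, against 13.9, 12.9, 14.2 and 17.1 RPKM in E2 replicates 1 to 4. Replicate 4 was the highest and replicate 2 the lowest library of each treatment, and the groups overlapped almost wholly. The log2 fold change was -0.016 (limma, standard error 0.12, 95% interval -0.28 to 0.25, adjusted p = 1.00). The spread between replicates, 14.4 ± 2.38 RPKM in E2+DHT and 14.5 ± 1.79 RPKM in E2 (SD, n = 4 each), was the widest among the tested members in RPKM. An antisense row, RP11-326F20.5, overlaps its start and had 167 reads over all 8 libraries.

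In order of mean RPKM over the 8 libraries the members stood as UAP1 (22.8), GFPT1 (18.0), B4GALT1 (14.5), OGT (13.1), MGEA5 (12.2), GNPNAT1 (9.27), PGM3 (3.87) and GFPT2 (0.255). UAP1 lay above GFPT1 in 8 of 8 libraries. GFPT1 lay above B4GALT1 in 7 of 8, B4GALT1 above OGT in 6 of 8 and OGT above MGEA5 in 6 of 8, so that the ranges of these neighbours overlapped. MGEA5 lay above GNPNAT1, GNPNAT1 above PGM3 and PGM3 above GFPT2 in 8 of 8 libraries each.

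Within a library, the last and the first enzyme of the pathway could be set against each other without any scaling between libraries. This ratio was chosen after its values could be seen and is given as a description. UAP1 over GFPT1 was 1.45, 1.41, 1.35 and 1.35 in E2+DHT replicates 1 to 4, against 1.13, 1.17, 1.18 and 1.10 in E2 replicates 1 to 4. The groups did not overlap, with a mean of 1.39 ± 0.0479 in E2+DHT and 1.14 ± 0.0353 in E2 (SD, n = 4 each). UAP1 alone already had groups without overlap, so that this ratio is not a result apart from that of UAP1. Under the grouping by record titles the mean ratio differed by -0.0431 between treatments. UAP1L1 (chromosome 9, plus strand, 139971953 to 139978991), a protein with sequence similar to UAP1, had a mean of 1.93 ± 0.187 RPKM in E2+DHT and 1.77 ± 0.285 RPKM in E2 (SD, n = 4 each; log2 fold change 0.10, limma adjusted p = 0.999), and a log2 fold change of -0.057 with the share of reads in exons as a covariate. UAP1 over UAP1L1 ranged from 11.6 to 14.5 in E2+DHT and from 9.92 to 14.5 in E2, and these ratios overlapped.

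**Figure D4:**
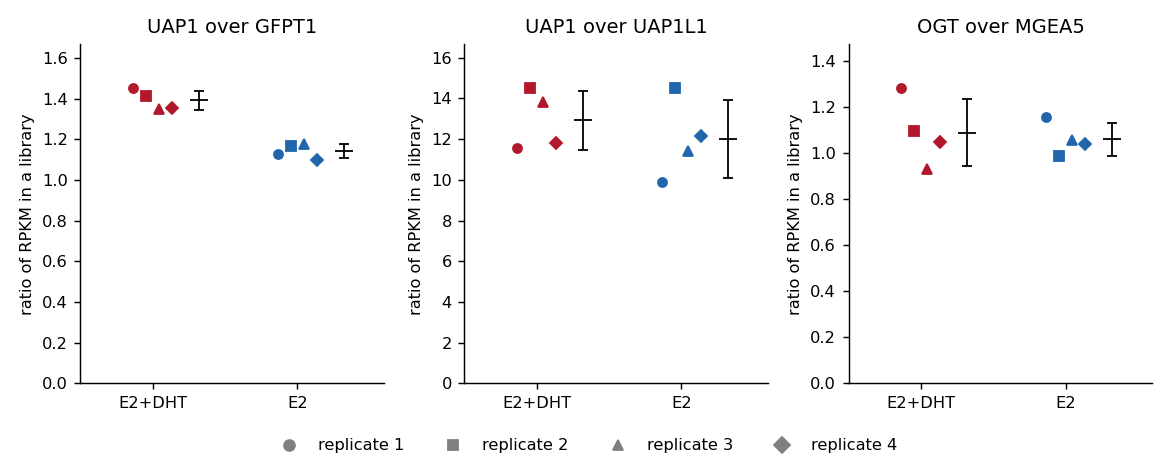
Ratios of RPKM within each library, with E2+DHT left and E2 right, a marker shape for each replicate number and the mean ± SD as a black bar. UAP1 over GFPT1 separates the treatments (1.35 to 1.45 against 1.10 to 1.18), whereas UAP1 over UAP1L1 and OGT over MGEA5 overlap.

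Around the members, 12 lists of genes that feed, salvage, divert, transport or spend UDP-GlcNAc or related sugars were read from the same fit. They hold 109 different genes, of which 90 were tested, and 1 rose, 0 fell and 89 did not pass (limma), while 6 were higher and 1 lower at an unadjusted p under 0.05, against 4.47% of all tested genes. Their groups did not overlap for 5 higher genes (GLUL, SLC38A2, SLC38A1, UGDH and PIGP) (1.98% of all tested genes) and 1 lower gene (GCNT1; 1.42%). The 90 genes had a median log2 fold change of 0.021, against 0.014 for all tested genes. The gene that rose was UGDH, which turns UDP-glucose into UDP-glucuronate, with 19.0 ± 0.969 RPKM in E2+DHT and 9.45 ± 0.428 RPKM in E2 (SD, n = 4 each; log2 fold change 0.97, limma adjusted p = 0.000244). FKBP5, a co-chaperone of steroid receptors and a common marker of androgen response, also rose, with 2.20 ± 0.263 RPKM in E2+DHT and 0.785 ± 0.0897 RPKM in E2 (SD, n = 4 each; limma adjusted p = 0.000727). Under the grouping by record titles UGDH and FKBP5 had log2 fold changes of -0.013 and -0.029. In the 4 records whose labels agree they had 0.96 and 1.04 (limma, adjusted p = 0.894), and neither passed. Those records are E2 replicates 1 and 2 and E2+DHT replicates 3 and 4. In a fit of so few libraries 0 of 11375 genes passed, so that not passing there says little.

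**Figure D5:**
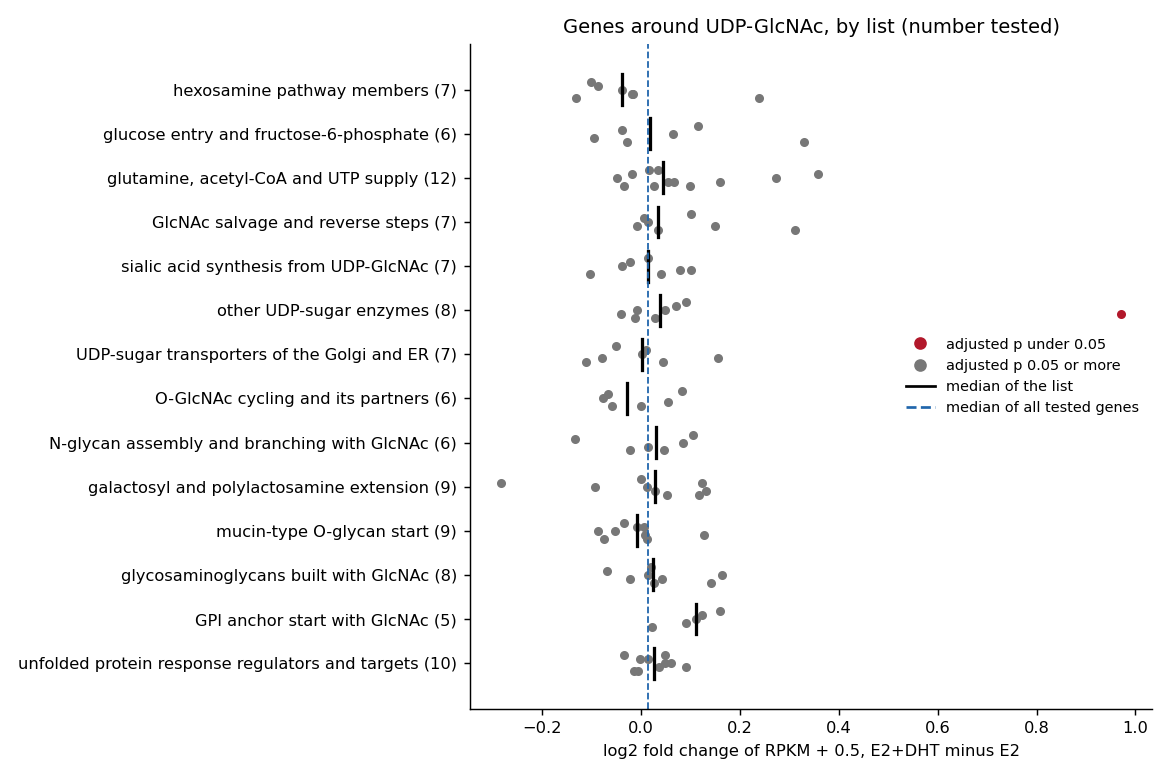
Log2 fold changes (E2+DHT minus E2) of the tested genes in the 12 lists, the members and a list of unfolded protein response genes, 1 point per gene, with the median of each list as a black bar and that of all tested genes (0.014) as a dashed line. Only UGDH, at 0.97, is marked as past the threshold.

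Supply of the substrates was covered by a pair of lists. Of 12 tested genes for glutamine, acetyl-CoA and UTP, 0 rose and 0 fell (limma), 3 were higher at an unadjusted p under 0.05, as were 327 of the 11375 genes tested in all, and the median log2 fold change was 0.045. GLUL, glutamine synthetase, had 120 ± 5.70 RPKM in E2+DHT and 93.4 ± 8.23 RPKM in E2 (SD, n = 4 each; limma adjusted p = 0.201, or 0.0258 to 1.00 over its alternatives). SLC38A2, a glutamine and alanine transporter, had 13.6 ± 0.586 RPKM in E2+DHT and 11.2 ± 0.763 RPKM in E2 (SD, n = 4 each; limma adjusted p = 0.295). SLC38A1, a related transporter, had 64.4 ± 2.19 RPKM in E2+DHT and 57.6 ± 1.08 RPKM in E2 (SD, n = 4 each; limma adjusted p = 0.967), and UMPS, of uridine synthesis, was the lowest of the list with a log2 fold change of -0.048. Of 6 tested genes for glucose entry 0 rose and 0 fell (limma), and 1 was higher at an unadjusted p under 0.05. SLC2A1, the glucose transporter, had 60.0 ± 5.76 RPKM in E2+DHT and 48.2 ± 9.94 RPKM in E2 (SD, n = 4 each), a log2 fold change of 0.33 that was 0.038 with the share of reads in exons as a covariate (limma, adjusted p = 0.999, or 0.0696 to 1.00 over its alternatives). SLC2A10 stood lowest at -0.095.

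Among 7 tested genes of GlcNAc salvage and the reverse steps 0 rose and 0 fell (limma). At an unadjusted p under 0.05, 1 was higher, as were 327 of the 11375 genes tested in all. That was NAGK, which phosphorylates free GlcNAc, with 3.37 ± 0.399 RPKM in E2+DHT and 2.63 ± 0.427 RPKM in E2 (SD, n = 4 each; limma adjusted p = 0.840). Of 8 tested genes of other UDP-sugars UGDH rose, 0 fell and 7 did not pass, and PGM1 was lowest with a log2 fold change of -0.039. Of 7 tested genes of sialic acid synthesis 0 rose and 0 fell (limma), 0 had an unadjusted p under 0.05, and log2 fold changes ran from -0.10 for SLC35A1, the CMP-sialic acid transporter, to 0.10 for NANS, which makes sialic acid phosphate. The 7 tested transporters of UDP-sugars ran from -0.11 for SLC35D1 to 0.16 for SLC35D2, with 0 past the threshold and 0 at an unadjusted p under 0.05 (limma). The 6 tested partners of O-GlcNAc cycling ran from -0.077 for TRAK1, an OGT-interacting adaptor of mitochondrial transport, to 0.084 for BAP1, a deubiquitinase that binds OGT, with 0 past the threshold and 0 at an unadjusted p under 0.05 (limma).

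The lists of genes that build glycans or membrane anchors, not all of which use GlcNAc itself, held 37 tested genes, and 0 rose and 0 fell (limma). In the 9 tested genes of galactosyl and polylactosamine extension the median log2 fold change was 0.028, and B3GNT2, which extends polylactosamine, was highest at 0.13. GCNT1, which starts a branch on mucin-type glycans, had 5.59 ± 0.292 RPKM in E2+DHT and 6.92 ± 0.507 RPKM in E2 (SD, n = 4 each; log2 fold change -0.28, limma adjusted p = 0.294), and its groups did not overlap. It was the gene of these lists with an unadjusted limma p under 0.05 (0.00248), and 1.42% of all tested genes were lower with DHT without overlap. The 6 tested genes of N-glycan branching ran from -0.13 for MGAT4A to 0.11 for MGAT4B, which add GlcNAc at the same branch point. The 9 tested genes of mucin-type O-glycans ran from -0.086 for C1GALT1 to 0.13 for GALNT12, and the 8 of glycosaminoglycans from -0.068 for EXTL3 to 0.16 for CHPF. The 5 tested genes of the first steps of membrane anchors ran from 0.022 for PIGA, or -0.048 with libraries scaled to the same RPKM sum, to 0.16 for DPM2, with a median of 0.11 and 0 past the threshold (limma; 0 at an unadjusted p under 0.05). The highest gene of several lists was below 0 with the share of reads in exons as a covariate, with log2 fold changes of -0.12 for NANS, -0.036 for SLC35D2, -0.15 for BAP1, -0.21 for MGAT4B, -0.047 for GALNT12, -0.19 for CHPF and -0.090 for DPM2. That share is itself partly aligned with treatment, as given above. Without E2 replicate 2, BAP1 was at -0.010, MGAT4B at -0.031 and NANS at 0.015. The lowest genes SLC35A1, SLC35D1, TRAK1, MGAT4A, C1GALT1 and EXTL3 were above 0 under the grouping by record titles. That grouping mixes the named treatments in equal number, so that a difference between them largely cancels and the sign there says little. Of 10 tested unfolded protein response genes 0 rose and 0 fell (limma; 0 at an unadjusted p under 0.05), from -0.035 for EDEM1 to 0.092 for ATF4.

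The genes whose log2 levels followed UAP1 most closely over the 8 libraries were MPC2, a subunit of the mitochondrial pyruvate carrier, TNFAIP8, PRKAB2, a subunit of AMP-activated kinase, GPCPD1, which splits glycerophosphocholine, and ZNF761, a zinc finger protein. Their Pearson correlations with UAP1 were 0.982, 0.980, 0.977, 0.976 and 0.972, picked as the 5 highest of all tested genes, and they include the difference between treatments and the depth and scaling that genes of a library share. None of the 5 passed the threshold, PRKAB2 coming closest with 6.08 ± 0.512 RPKM in E2+DHT and 4.46 ± 0.339 RPKM in E2 (SD, n = 4 each; limma adjusted p = 0.0940). The lowest correlations were -0.942 for HKR1, -0.930 for KLRAP1 and -0.919 for KCTD6.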

How the data were processed

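Total RNA of 8 ZR-75-1 libraries, 4 per treatment, was prepared with a stranded kit and read as paired ends, per the labels' protocols. The authors deposited RPKM values for each library in 1 table; per the submitters' processing notes the build was hg19. The aligner, the counting tool, its use of strand and the annotation were not given in the sources used here. For 100% of the 27594 genes above 0, the 8 RPKM values could be written as whole reads (tolerance 0.0001 reads) over 1 exon length and 1 library size each, the shortest such length being taken. The median tested gene was covered by 529 reads in a library.

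From the deposited RPKM, log2(RPKM + 0.5) was computed for the 11375 genes with a mean of at least 0.5 RPKM and fitted with limma 3.58.1 in R 4.3.3 (intensity trend, no block, two-sided, Benjamini-Hochberg), checked on simulated data. Folds understate changes of low genes. Tables and figures used Python 3.11.15, pandas 2.3.3, NumPy 2.4.6 and matplotlib 3.10.9. Promoters came from RefSeq (GRCh38.p14); no coordinates were converted.

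The members and lists were chosen with earlier results of these data known. Named were all members, each list's genes past the threshold and its highest and lowest gene, the genes whose levels were most and least like UAP1, and UAP1L1, UGDH and FKBP5; SLC38A1, SLC38A2 and PIGP were added after their values were seen. Some genes that the rule names are not reported here. The alternatives were other pseudocounts, filters, scalings and weights, voom, a replicate block, left-out libraries, other groupings and, added later, passage and exon share as covariates.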

Additional observations from a re-analysis of the deposited data

Results flagged for a closer look

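In 116 groups of 4 libraries (the values of the named genes, 4 ratios and 4 measures of the libraries, in each treatment), 7 held a single library that stood apart by most of the range of its group (Dixon's test, 95% critical value). Chance flags about 1 in 20 such groups. E2+DHT replicate 2 had 0.310 RPKM of GFPT2, from 29 reads, the others 0.197 to 0.206, and the ratio of GFPT1 over GFPT2 was accordingly 59.3 there, against 84.4 to 87.8. NANS in E2+DHT had 1 library at 15.3 RPKM, against 17.6 to 18.0. GPCPD1 in E2+DHT had 1 library at 2.40 RPKM, against 2.80 to 2.88. KLRAP1 in E2+DHT had 1 library at 0.890 RPKM, against 0.836 to 0.845. PRKAB2 in E2 had 1 library at 4.97 RPKM, against 4.25 to 4.33. FKBP5 in E2 had 1 library at 0.652 RPKM, against 0.813 to 0.841.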

How the results depend on the processing

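Each tested member had 23 alternatives, and 0 of these 161 values passed the threshold (limma). Of them 154 lay within 1 SD between replicates of the reported value. This count is no measure of robustness, since several settings could hardly give another outcome. Other filters, the fit without intensity trend and the replicate block leave the log2 fold change as it is and alter only its p. Leaving out 1 library shifts the mean of its group only in part. Grouping by record titles moved UAP1 to 0.012 and turned UGDH to -0.013 and FKBP5 to -0.029. Groups by titles mix the named treatments in equal number, so that a difference between the named treatments largely cancels there. UGDH ran from 17.9 to 20.2 RPKM in the libraries named E2+DHT and from 9.09 to 10.1 RPKM in those named E2. FKBP5 ran from 1.91 to 2.55 and from 0.652 to 0.841 RPKM in the same order. Which of the labels are right was not tested. Without single libraries the log2 fold change of UAP1 was 0.22 to 0.27, that of PGM3 -0.095 to 0.058 and that of B4GALT1 -0.11 to 0.065, so that the last 2 have no stable sign. GNPNAT1 was -0.20 without E2 replicate 1, -0.026 without E2 replicate 4, -0.039 without E2 replicate 2 and -0.038 without E2+DHT replicate 1, and it was above 0 with exon share as a covariate (0.043), in the 4 records (0.030) and by titles (0.12). By titles GFPT1 (0.056), MGEA5 (0.063) and B4GALT1 (0.18) were also above 0. The exact permutation test of UAP1, with the same log2 difference of 0.24, passed only as an unadjusted p.

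The count of all genes past the threshold, 21 as reported, was 5 without a filter on low values (27594 genes adjusted together) and 5 when the exon share was a covariate. It was 33 after median centring, 47 with array weights, 51 with passage as a steady trend, 2 with groups from the titles and 0 in the 4 records with agreeing labels (limma, where 286 had an unadjusted p under 0.05), and 6 to 18 without single libraries. In the pathway lists 1 gene passed as reported, 2 after quantile normalization (GLUL joining, limma adjusted p = 0.0258), and 0 under the titles and in the 4 records (limma). A replicate block gave 72 genes, 62 higher and 10 lower, and 0 members (UAP1, limma adjusted p = 0.259). The numbers were not taken as pairs in the reported fit, since record by record libraries with the same number in their names have different passages. Even so, deviations of same-numbered libraries correlated at 0.70, 0.45, 0.12 and 0.083, and 6 of 8 libraries were closest to their own number. The reported fit may therefore ignore a pairing that the labels do not state. Depth limits GFPT2, with 16 to 58 reads per library.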
